A study of Mus musculus with 9 samples.

Results

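Amino acid transporters were followed through 10 genes of the solute carrier families: Slc7a1, Slc7a2, Slc7a5, Slc7a7, Slc7a8, Slc7a11, Slc3a2, Slc1a4, Slc1a5 and Slc38a2. The members were all probe sets of the array whose single annotated gene symbol was one of these names. They came to 14 of the 22690 probe sets, or 10 of the 12393 genes tested, 3 each for Slc1a4 and Slc7a2 and 1 for each of the other genes. Total RNA of 6 mouse alveolar rhabdomyosarcomas and of 3 wild-type skeletal muscles had been hybridised to Affymetrix arrays, 1 array per sample. Alveolar rhabdomyosarcoma is a sarcoma whose cells express genes of the skeletal muscle lineage. The comparison asks how the tumours differ from muscle, and only wild type is stated for the muscles. The genotype, strain, age and treatment of the animals, the muscle sampled, the driver of the tumours and whether samples came from separate animals are not given in the labels used here. The p-values therefore measure the spread between these samples, which may in part be technical.

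Cells take up amino acids through carriers that differ in substrate and in what drives them. The SLC7 light chains Slc7a5 (LAT1), Slc7a7 (y+LAT1), Slc7a8 (LAT2) and Slc7a11 (xCT) work as heterodimers with the glycoprotein encoded by Slc3a2 (4F2hc, CD98) and exchange 1 amino acid for another. The cationic transporters Slc7a1 and Slc7a2 act without that partner, Slc1a4 (ASCT1) and Slc1a5 (ASCT2) are sodium-dependent exchangers of neutral amino acids, and Slc38a2 (SNAT2) is a sodium-coupled importer. In muscle the branched-chain amino acids that LAT transporters carry feed both protein synthesis and oxidation, and several of these genes are known targets of the transcription factor ATF4.

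Each value is a MAS5 signal, a linear brightness in arbitrary units, after every array was multiplied to 1 trimmed mean; only muscle 1 and muscle 3 were off the common scale, by factors of 1.6995 and 3.5493. Differences are tumour minus muscle on log2(signal + 16), with SE, and the adjusted p is that of limma with Benjamini-Hochberg adjustment over all 12393 genes, each represented by its brightest probe set. On 9 arrays these differences carry wide errors. Tumour 1 stood apart from the other tumours, with a mean correlation across genes of 0.737 with them, against 0.817 to 0.867 for tumours 2 to 6. The 3′/5′ signal ratio of the Gapdh control probe sets, a sign of RNA quality, was 1.93 to 9.39 in tumours and 1.68, 57.17 and 33.0 in muscles 1 to 3; that of Actb was 3.35 to 6.78 in tumours and 1.87 to 4.35 in muscles. Muscle fibre markers bore out the muscle label: their summed signal was 1698 to 123343 in tumours, with tumour 1 highest, and 198848 to 272597 in muscles, and 9 of 10 were lower in tumours. In tumour 1, however, Myh1 read 42065, above every muscle (18805 to 26293). Acta1 read 24741 there, within the muscle range (22409 to 37416), and its lower call held in 8 of 20 alternatives. Of 14 macrophage markers 10 were higher and none lower, with sums of 11168 to 43324 in tumours and 3849 to 5369 in muscles. Of 9 measured cell division markers all 9 were higher (11251 to 17933 in tumours, 1646 to 3450 in muscles). For T cells 0 of 6 were called (243 to 1107 in tumours, 343 to 449 in muscles), for endothelium 1 of 6 was lower (774 to 2061 in tumours, 2500 to 2955 in muscles), and for fibroblasts 1 of 6 was lower (10027 to 59117 in tumours, 30598 to 37021 in muscles). Adipocyte markers were lower in 3 of 3 (155 to 1261 in tumours, 7691 to 9872 in muscles), and 0 of 3 erythroid markers were called (77.2 to 13322 in tumours, 470 to 1146 in muscles). No marker was listed at 0. The part of these other cell types in the values below was not tested, and in bulk samples fewer cells of a type and less RNA per cell cannot be told apart.

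Of the 10 transporter genes 3 were called higher in tumours, 0 lower, and 7 did not pass. Slc7a5 rose 14.9-fold, Slc1a4 2.7-fold and Slc7a7 2.29-fold on the offset scale. Among all genes 17.8% were called, 8.66% higher and 9.09% lower. The members' median log2 difference was -0.02, against 0.10 over all genes. Tumour and muscle signals did not overlap for 4 member genes, all higher in tumours, where 21.6% of all genes did not overlap, 10.7% in that direction and 11% in the other. Of the 14 member probe sets 5 did not overlap with tumours higher and 1 with tumours lower, while 20.1% of all probe sets did not overlap, 9.97% with tumours higher and 10.1% with tumours lower. The count of 3 fell to 1, leaving only Slc7a5, without muscle 2 or without muscle 3, while the count over all genes fell from 2200 to 1267 and 1110. Without tumours 1 and 4 it stayed at 3.

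**Figure D1:**
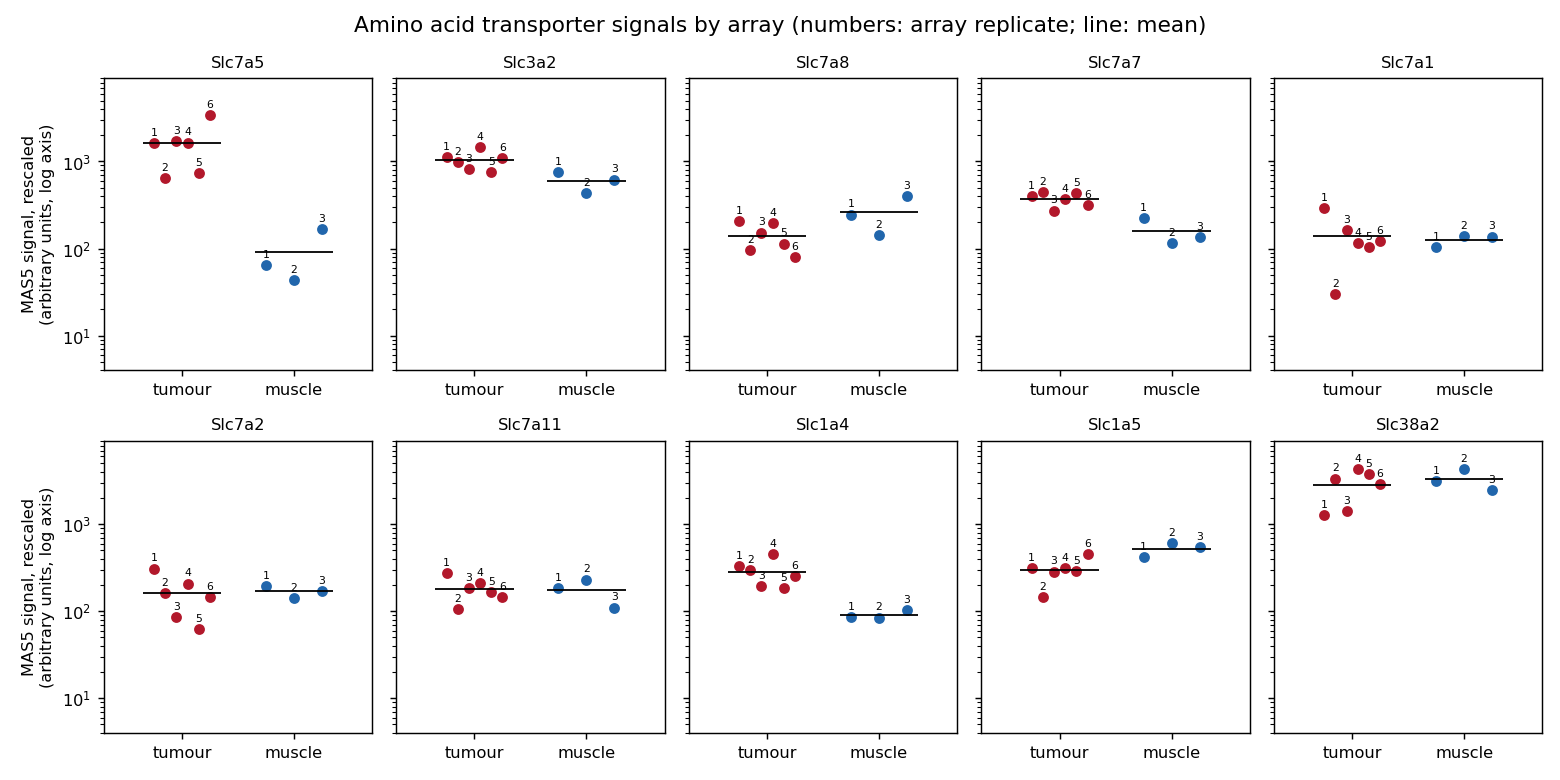
Rescaled MAS5 signal (arbitrary units, log axis) of the 10 transporter genes, each by its brightest probe set, in the 6 tumours (red, left) and the 3 muscles (blue, right). Points are arrays, numbers are replicates and lines are means. All 6 tumours lie above all 3 muscles for Slc7a5, Slc3a2, Slc7a7 and Slc1a4, and the groups overlap for the other genes.

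Slc7a5 (1418326_at) encodes the light chain of LAT1, the exchanger that brings leucine and other large neutral amino acids into growing cells. Its signal was 1635, 639, 1724, 1651, 736 and 3426 in tumours 1 to 6, against 65.1, 43.0 and 166 in muscles 1 to 3. Every tumour was brighter than every muscle, and the lowest tumour was 3.86 times the highest muscle. The mean was 1635 ± 1001 over the 6 tumours, against 91.3 ± 65.4 over the 3 muscles (SD; n = 6 and 3 here and for every mean below). The log2 difference was 3.89 ± 0.52, with an adjusted p of 0.00021 (limma, Benjamini-Hochberg). The position of the probe set within its own array, which no rescaling alters, was the 78th to 96th percentile in tumours and the 20th to 47th in muscles. The size of the difference depended on the rescaling and on the offset: it was 4.60 without the rescaling, 4.16 with an offset of 1 and 3.33 with an offset of 64, on the log2 scale. The call held under each of the 20 alternatives run, at adjusted p of 7.1e-08 to 0.0053 (limma). Among these, the fit of above-median features only is no separate support. Its filter used the mean over all arrays, which Slc7a5 could pass through its tumour signals alone.

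Slc3a2 (1425364_a_at) encodes the heavy chain with which LAT1, LAT2, y+LAT1 and xCT reach the cell surface. It had signals of 1131, 986, 823, 1451, 762 and 1085 in tumours 1 to 6 and 753, 435 and 618 in muscles 1 to 3. The tumours again lay above the muscles without overlap, but tumour 5 exceeded muscle 1 by a ratio of only 1.01. The log2 difference of 0.77 ± 0.32 (95% interval 0.08 to 1.47) had an adjusted p of 0.12 (limma) and was not called. It passed only without the rescaling of 2 muscle arrays, at 1.60 with an adjusted p of 0.023, in a range of 0.023 to 0.45 over 20 alternatives. Heavy and light chain did not share their order among tumours, since tumour 6 was highest for Slc7a5 and tumour 4 for Slc3a2.

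Slc7a8 (1417929_at) encodes LAT2, a light chain with a broader range of neutral substrates. Its signal was 207, 96.1, 152, 196, 114 and 80.5 in tumours 1 to 6 and 246, 144 and 398 in muscles 1 to 3. No tumour exceeded the highest muscle and 3 tumours lay below all muscles. The log2 difference of -0.79 ± 0.46 did not pass (adjusted p of 0.29, limma; 95% interval -1.77 to 0.19), and without the rescaling it was 0.01. The muscles varied 2.77-fold among themselves for this gene.

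**Figure D2:**
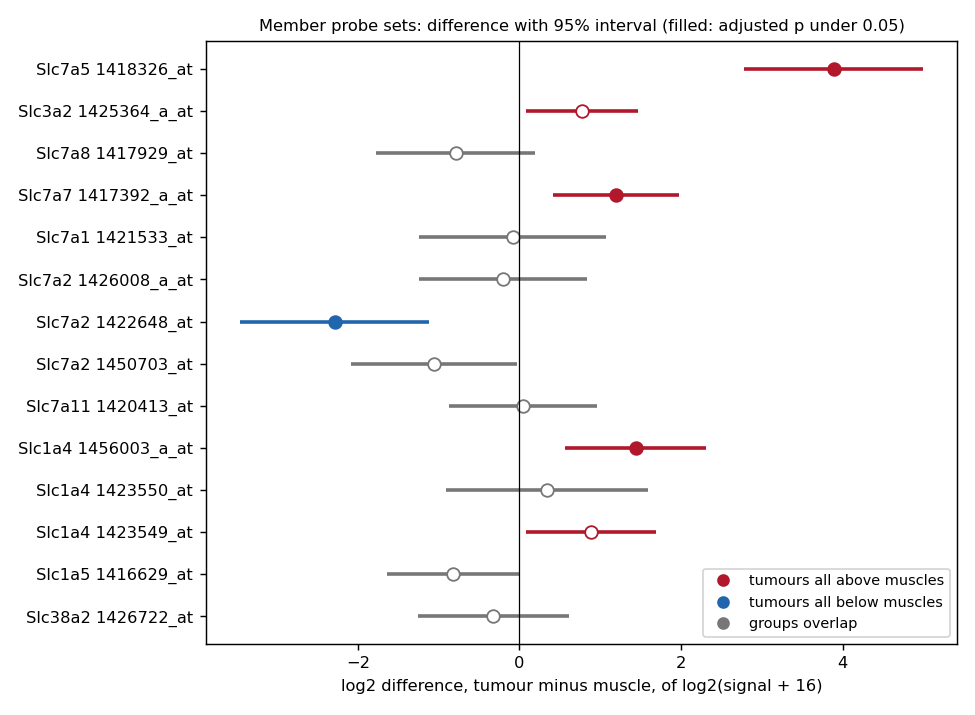
Log2 difference, tumour minus muscle, of log2(signal + 16) for the 14 member probe sets, with 95% intervals from limma. Filled points have an adjusted p under 0.05 in the fit of 20380 probe sets, and colours show whether tumours lay all above, all below or among the muscles. Slc7a5 stands at 3.89, 1 probe set of Slc7a2 at -2.29, and 10 of the 14 are not called.

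Among transporters of cationic amino acids, Slc7a7 was higher and Slc7a1 and Slc7a2 were not called at the gene level. Slc7a7 (1417392_a_at) encodes the light chain of y+LAT1, which exports arginine and lysine against neutral amino acids and is known from macrophages as well as from gut and kidney. Its signal was 399, 449, 272, 371, 437 and 315 in tumours 1 to 6, against 223, 115 and 135 in muscles 1 to 3. All tumours lay above all muscles, within a range of 1.65-fold, the narrowest of the 14 probe sets among tumours. The log2 difference was 1.19 ± 0.37 with an adjusted p of 0.038 (limma). The call was lost without tumour 4 (0.058), tumour 5 (0.083), tumour 6 (0.054), muscle 2 (0.19) or muscle 3 (0.16) and with median centring (0.061), in a range of 0.013 to 0.21 over 20 alternatives; without the rescaling the difference was 1.92. Beside it, the summed macrophage markers were 43324, 26624, 33234, 21921, 24729 and 11168 in tumours 1 to 6 and 5369, 3849 and 3966 in muscles 1 to 3. Csf1r alone gave 26580 of the 43324 in tumour 1, so the top place of tumour 1 rests on that 1 gene. The part of these markers in the Slc7a7 difference was not tested.

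Slc7a1 (1421533_at), the widely expressed arginine and lysine carrier CAT1, had signals of 291, 30.1, 163, 115, 104 and 122 in tumours 1 to 6 and 103, 138 and 137 in muscles 1 to 3. The groups overlapped, and the tumours spread 9.67-fold, with tumour 1 high and tumour 2 low. The log2 difference was -0.08 ± 0.53 (adjusted p of 0.947, limma), with a 95% interval of -1.23 to 1.06 that leaves room for a change of either sign.

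Slc7a2 encodes CAT2, whose transcript is spliced into forms of different affinity for arginine, and its 3 probe sets differed. The brightest, 1426008_a_at, read 309, 162, 86.2, 208, 62.0 and 144 in tumours 1 to 6 and 195, 142 and 170 in muscles 1 to 3. These overlapped, and the gene was not called on this probe set (-0.20 ± 0.49, adjusted p of 0.85, limma). Probe set 1422648_at read 30.2, 62.6, 27.9, 97.7, 7.04 and 6.06 in tumours 1 to 6 and 233, 155 and 247 in muscles 1 to 3. Every tumour was below every muscle here, and the log2 difference was -2.29 ± 0.55 with an adjusted p of 0.011 (limma over 20380 probe sets). In that fit 15.7% of all probe sets were called, 7.89% lower and 7.8% higher, against 1 and 3 of the 14 member probe sets. The size of this difference depended on the offset, at -3.00 with an offset of 1 and -1.48 with an offset of 64. The lower call was lost without muscle 3 (0.061) and without the rescaling (-1.52, adjusted p of 0.055). It was also lost in limma fits of only tumours 1 to 3 and muscles 1 to 3, with a replicate block (0.061) and without it (0.053). The third, 1450703_at, was dim, at 59.7, 8.14, 17.7, 7.14, 6.49 and 6.63 in tumours 1 to 6 and 109, 28.0 and 28.1 in muscles 1 to 3. Only tumour 1 reached the muscle range; the log2 difference of -1.06 ± 0.48 had an adjusted p of 0.17 (limma), and 0.03 without tumour 1; with an offset of 1 the difference was -1.80. The mean of the 3 probe sets differed by -1.18 (adjusted p of 0.076, limma). Tumour 1, in which 2 of these 3 probe sets were highest among tumours, was also the tumour with the largest muscle marker sum (123343, against 1698 to 26225 in the other tumours); the part of that in these values was not tested. Which splice form each probe set reads was not examined.

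Slc7a11 (1420413_at) encodes xCT, the exchanger that imports cystine for glutathione synthesis and exports glutamate. Its signal was 273, 106, 186, 210, 166 and 144 in tumours 1 to 6 and 183, 231 and 110 in muscles 1 to 3. The groups covered nearly the same range, and the log2 difference of 0.05 ± 0.42 (95% interval -0.86 to 0.96) had an adjusted p of 0.963 (limma). Its rank in the arrays was at the 41st to 50th percentile in tumours and the 36th to 56th in muscles, and without the rescaling the difference was 0.75 (adjusted p of 0.37, limma).

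Of the 3 sodium-dependent carriers of neutral amino acids, Slc1a4 was called higher and Slc1a5 and Slc38a2 did not pass. Slc1a4 encodes ASCT1, an exchanger of serine, alanine, cysteine and threonine. Its brightest probe set, 1456003_a_at, read 331, 298, 194, 450, 186 and 252 in tumours 1 to 6, against 85.7, 84.3 and 103 in muscles 1 to 3. Tumours and muscles did not overlap, and the muscles lay within 1.22-fold of each other. The log2 difference was 1.44 ± 0.41 with an adjusted p of 0.025 (limma). That call was lost without muscle 1 (0.085), muscle 2 (0.1) or muscle 3 (0.081), and as the mean of the 3 probe sets (0.88, adjusted p of 0.13), in a range of 0.0081 to 0.16 over 19 alternatives; without the rescaling the difference was 2.11. Probe set 1423549_at, at 13.6 to 74.1 in tumours with a median of 27.0 and at 9.71, 7.69 and 10.5 in muscles, also had all tumours above all muscles, but at very low signals (0.88 ± 0.38, adjusted p of 0.14, limma; 1.57 with an offset of 1). Probe set 1423550_at ran from 45.8 to 383 in tumours with a median of 93.2 and read 101, 80.6 and 97.1 in muscles, so the groups overlapped; tumours 1 and 6 stood at 383 and 257 (0.34 ± 0.58, adjusted p of 0.79, limma).

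**Figure D3:**
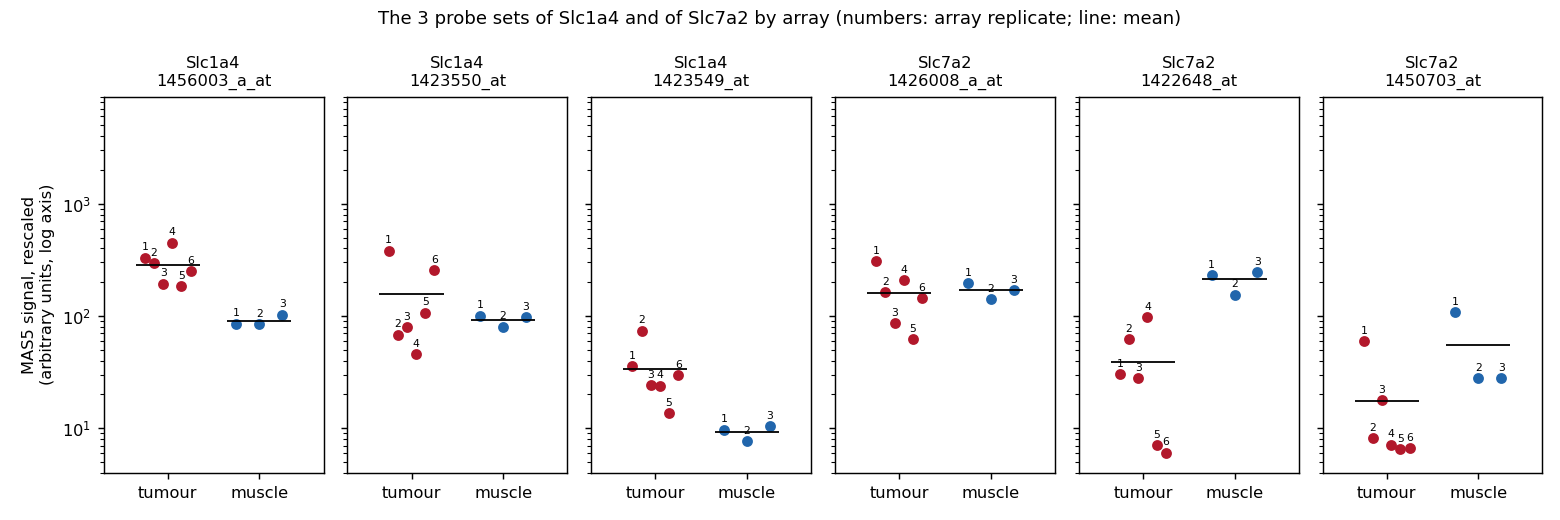
Rescaled MAS5 signal (arbitrary units, log axis) of the 3 probe sets of Slc1a4 and the 3 of Slc7a2 in tumours (red, left) and muscles (blue, right). Points are arrays, numbers are replicates and lines are means. For Slc1a4 2 of 3 probe sets have all tumours above all muscles, and for Slc7a2 only 1422648_at has all tumours below all muscles.

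Slc1a5 (1416629_at) encodes ASCT2, a glutamine exchanger known to be abundant in many cancers. Its signal was 314, 145, 285, 313, 289 and 457 in tumours 1 to 6, against 417, 610 and 545 in muscles 1 to 3. In 5 of 6 tumours it lay below every muscle, and only tumour 6 exceeded muscle 1. The log2 difference of -0.82 ± 0.39 (95% interval -1.65 to 0.01) had an adjusted p of 0.18 (limma), in a range of 0.09 to 0.997 over 20 alternatives, and was not called under any of them. Without the rescaling, which multiplied muscles 1 and 3, the difference was -0.0039 (adjusted p of 0.997, limma).

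Slc38a2 (1426722_at), the SNAT2 importer of small neutral amino acids, had signals of 1262, 3332, 1415, 4301, 3774 and 2904 in tumours 1 to 6 and 3121, 4294 and 2481 in muscles 1 to 3. Tumours 1 and 3 were low, the other tumours lay in the muscle range or at its top, and the log2 difference was -0.33 ± 0.43 (adjusted p of 0.7, limma; 95% interval -1.26 to 0.61).

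The promoters of 7 of the 10 genes were in the RefSeq promoter table (GRCm38.p6, 250 bases before to 50 after each start); Slc7a2, Slc7a5 and Slc1a5 were not matched. They were searched on both strands for TGATGNAA, the core of the C/EBP-ATF response element through which ATF4 is known to act, which reads TTNCATCA on the other strand. It was present at 3 of the 7 genes, Slc7a11, Slc1a4 and Slc7a7. In the whole table it was present at 4.51% of 27025 genes and in 3.97% of 32851 promoters. A gene counted if any of its starts held a match, which favours genes with many starts such as Slc7a7. Several of the 10 genes were already known as ATF4 targets, so these shares are no test of enrichment. These stretches are shown because they hold all matches in the 3 genes, of which Slc1a4 and Slc7a7 were called higher and Slc7a11 was not; capitals mark the matches.
Slc7a11, chr3:50443614-50443719, minus strand: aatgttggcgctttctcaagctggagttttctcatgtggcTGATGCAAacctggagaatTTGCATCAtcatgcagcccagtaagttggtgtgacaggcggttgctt
Slc1a4, chr11:20332710-20332757, minus strand: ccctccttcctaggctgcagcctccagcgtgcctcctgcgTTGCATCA
Slc7a7, chr14:54417938-54418125, minus strand: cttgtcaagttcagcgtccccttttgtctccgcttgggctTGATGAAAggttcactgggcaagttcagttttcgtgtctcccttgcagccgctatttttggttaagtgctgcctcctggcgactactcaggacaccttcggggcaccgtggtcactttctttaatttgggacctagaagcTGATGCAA
At Slc7a11 the 2 matches, on opposite strands, begin 66 and 47 bases upstream of the start. At Slc1a4 the single match begins 4 bases upstream and runs over the start. At Slc7a7, the gene with 5 listed starts, the matches begin 141 and 1 bases upstream of 1 of them, and the second match also lies 243 bases upstream of another. A match is a string of letters, not a measured binding site, and no match at Slc7a1, Slc7a8, Slc3a2 or Slc38a2 says only that these letters are not in those windows. Atf4 itself, picked out after its values were seen, averaged 2401 ± 631 in tumours against 1920 ± 1140 in muscles and was not called (0.43 ± 0.38, adjusted p of 0.52, limma).

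Which tumour was highest or lowest differed between transporters. Tumour 1 was the highest tumour for 6 of the 14 probe sets, tumour 4 for 4, tumours 2 and 6 for 2 each, and tumours 3 and 5 for none. Tumour 5 was lowest for 5 and tumour 2 for 4. These counts include 3 probe sets each for Slc7a2 and Slc1a4 and were not set against all probe sets. The arrays also differed in level after rescaling, with a median signal of 276 in tumour 1, 144 in tumour 2 and 196 to 246 in tumours 3 to 6. Slc7a8, for example, read 207 and 96.1 in tumours 1 and 2 but was at the 41st percentile in both. The part of array level in these orders was not tested. The spread among tumours, as highest over lowest signal, ran from 1.65 for Slc7a7 and 1.9 for Slc3a2 to 9.67 for Slc7a1 and 16.1 for Slc7a2 on 1422648_at. Among muscles it ran from 1.22 for Slc1a4 on 1456003_a_at to 3.9 for Slc7a2 on 1450703_at. Of the 10 genes 5 had a mean log2 signal above the median gene, namely Slc7a5, Slc3a2, Slc7a7, Slc1a5 and Slc38a2; the other 5 were dimmer than the median gene.

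Genes whose profile over the 9 arrays was most like that of 3 transporters were sought among 6191 genes of above-median brightness, by the root mean square difference of log2 values centred on each gene's mean. For Slc7a5 these were Alcam (0.57), Sin3b (0.60) and Wasf1 (0.61), which themselves differed by 3.45 ± 0.50, 3.35 ± 0.34 and 3.75 ± 0.52. Such differences follow from the selection, since the distance includes the step between tumours and muscles, and are no separate result. For Slc3a2 the nearest genes were Xab2 (0.18), Rae1 (0.19) and Lss (0.20), and for Slc7a7 Manf (0.20), Sp1 (0.20) and Wnt7b (0.21).

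Other genes of amino acid handling were taken from 6 lists, of which 1 had most of its genes called. Over all genes 17.8% were called, 8.66% higher and 9.09% lower. Of 15 genes of branched-chain amino acid breakdown, which consumes substrates of LAT1 and LAT2, 12 were lower and 1 higher, with a median log2 difference of -1.71 against 0.10 over all genes. Aldh6a1, a dehydrogenase of valine breakdown, averaged 225 ± 112 in tumours against 3306 ± 1012 in muscles, a difference of -3.87 ± 0.42 (adjusted p of 4.2e-05, limma). Bcat1, the cytosolic aminotransferase that starts this pathway outside mitochondria, was the 1 that rose, at 537 ± 344 in tumours against 156 ± 22.8 in muscles (1.50 ± 0.46, adjusted p of 0.037, limma). Its call was lost without any 1 of muscles 1 to 3 (0.13, 0.098 and 0.12), without tumour 5 (0.057) or tumour 6 (0.05), with quantile normalization (0.056), with median centring (0.09) and as the mean of its probe sets (0.13). Without the rescaling 4 of the 15 were lower, and without muscle 3 it was 7. The muscle fibre marker sums given above differ in the same direction as this list, and their part in it was not tested.

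The array measured 27 of 44 further amino acid transporters. Of these 2 rose, 1 fell and 24 did not pass, with a median of 0.17, where 8.66% of all genes were called higher and 9.09% lower. Slc38a3 (SNAT3), a glutamine carrier of muscle and liver, fell to 478, 28.5, 82.4, 164, 99.9 and 142 in tumours 1 to 6, against 1068, 1226 and 886 in muscles 1 to 3. All tumours were below all muscles (-2.94 ± 0.59, adjusted p of 0.0035, limma), under all 19 alternatives. Slc38a1 (SNAT1), another glutamine carrier, had signals of 3363, 298, 853, 1138, 1928 and 1636 in tumours 1 to 6 and 402, 249 and 252 in muscles 1 to 3. Tumour 2 lay within the muscle range, and the difference of 1.99 ± 0.58 (adjusted p of 0.028, limma) was not called without tumour 5 (0.058), tumour 6 (0.052), any 1 of muscles 1 to 3 (0.055, 0.11 and 0.12) or tumours 1 and 4 together (0.054). Slc7a3, the cationic carrier CAT3, read 288 ± 127 in tumours against 93.3 ± 29.2 in muscles (1.42 ± 0.44, adjusted p of 0.036, limma). It was not called without tumour 3 (0.06), tumour 6 (0.072) or any 1 of muscles 1 to 3 (0.065, 0.11 and 0.19), nor with quantile normalization (0.071) or median centring (0.081).

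**Figure D4:**
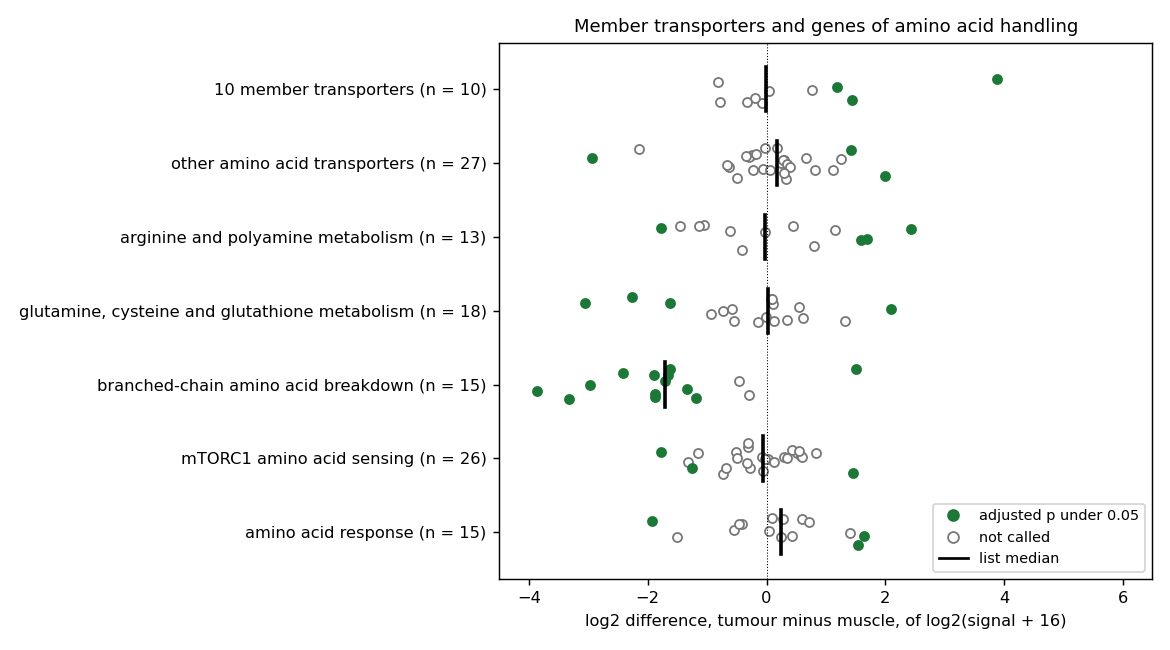
Log2 difference, tumour minus muscle, of log2(signal + 16) for the 10 member transporters and for 6 lists of genes of amino acid handling. Each point is a gene, filled where the adjusted p is under 0.05, and bars are list medians. The list of branched-chain amino acid breakdown has its median at -1.71, and the other medians lie between -0.06 and 0.24.

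The remaining lists held calls in both directions, where 8.66% of all genes were called higher and 9.09% lower. Of 13 genes of arginine and polyamine metabolism 3 were higher and 1 lower. Arg1, the arginase known from liver and alternatively activated macrophages, read 244, 85.4, 4.20, 283, 74.7 and 217 in tumours 1 to 6 and 5.31, 4.49 and 11.0 in muscles 1 to 3. Tumour 3 was dimmer than every muscle, and the call (2.43 ± 0.72, adjusted p of 0.03, limma) was lost without tumour 4 (0.056), tumour 6 (0.056) or any 1 of muscles 1 to 3 (0.098, 0.11 and 0.09), or tumours 1 and 4 together (0.072). The size of the Arg1 difference depended on the offset, at 3.59 on the log2 scale with an offset of 1 and 1.40 with an offset of 64. Oat, ornithine aminotransferase, was the lower gene, at -1.78 ± 0.52 (adjusted p of 0.028, limma), lost without tumour 4 (0.052), any 1 of muscles 1 to 3 (0.1, 0.099 and 0.084) or the rescaling (0.25), and with median centring (0.075). Of 18 genes of glutamine, cysteine and glutathione metabolism 1 was higher and 3 were lower. Gpx1, a glutathione peroxidase, rose 4.27-fold (2.09 ± 0.33, adjusted p of 0.00061, limma), and Got1, the cytosolic aspartate aminotransferase, fell 8.3-fold (-3.05 ± 0.56, adjusted p of 0.0019, limma), under all 20 alternatives in each case. The glutathione synthesis genes Gclc and Gclm, also picked out after their values were seen, which use the cysteine that xCT supplies, differed by 0.11 ± 0.47 and -0.01 ± 0.42.

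LAT1 substrates activate mTORC1, a growth kinase complex. Of 26 genes from a list of its subunits, amino acid sensors, other regulators and targets, 1 was higher and 2 were lower, with a median of -0.06. Among all genes 8.66% were called higher and 9.09% lower. Lamtor1, an anchor of the complex on lysosomes, differed by 1.46 ± 0.42 (adjusted p of 0.027, limma), but by 0.18 as the mean of its 3 probe sets (adjusted p of 0.76), and its call was also lost without muscle 2 (0.13) or muscle 3 (0.16). Deptor, an mTOR inhibitor, differed by -1.77 ± 0.58 (adjusted p of 0.049, limma); its call was lost without tumour 2 (0.066), tumour 3 (0.068), tumour 5 (0.089) or any 1 of muscles 1 to 3 (0.095, 0.17 and 0.16), without the rescaling (0.26), with quantile normalization (0.094), median centring (0.067) or an offset of 1 (0.053), and without the trend of the variance (0.066). Of 15 genes of the amino acid response 2 were higher and 1 lower, with a median of 0.24. Ddit3 (CHOP) read 248 ± 83.0 in tumours against 74.9 ± 48.4 in muscles (1.65 ± 0.47, adjusted p of 0.027, limma), lost without tumour 4 (0.05), tumour 5 (0.052), muscle 1 (0.064), muscle 2 (0.19) or tumours 1 and 4 together (0.053). Vegfa, an angiogenic factor on that list, differed by -1.93 ± 0.59 (adjusted p of 0.037, limma), lost without tumour 3 (0.069), tumour 5 (0.07), any 1 of muscles 1 to 3 (0.081, 0.13 and 0.15), the rescaling (0.19), with quantile normalization or median centring (0.058 each), or as the mean of its probe sets (0.14).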

How the data were processed

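The authors deposited 1 linear intensity for each probe set and array, made with MAS5 per the submitters' processing notes, which name no version. MAS5 subtracts local background and mismatch signal, so dim values may be background. Scaling target, filters and detection calls: not given in the sources used here. The trimmed mean (2% at each end) was 500.2 on 7 arrays, 294.3 on muscle 1 and 140.9 on muscle 3, and every array was multiplied to the median one.

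Of 22690 probe sets, 64 controls were left out and 20380 had 1 gene symbol. Identifiers of 20351 were found in the GRCm38.p6 gene table. Tests used limma 3.58.1 in R 4.3.3 (lmFit, eBayes with trend) on log2(signal + 16), no covariates, called at adjusted p under 0.05, once over 12393 genes (brightest probe set by mean over all arrays, which are mostly tumours and can favour probe sets bright there) and once over 20380 probe sets. The fit was tested on simulated data with 200 changed genes, far fewer than the 2200 genes called here. There 3% of true 2-fold and 43% of true 4-fold changes were called, with 5 false calls. A gene that was not called may therefore still differ. Python 3.11.15 made the summaries.

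The members, lists, markers and the rule for named genes (all members, the most changed called genes of each list, 3 nearest profiles for Slc7a5, Slc3a2 and Slc7a7, the Gapdh and Actb controls) were chosen with earlier results of these data known. Alternatives were no rescaling, quantile normalization, median centring, offsets of 1 and 64, above-median features only, no trend, the mean of probe sets, a replicate block, each array left out, and no tumours 1 and 4. The above-median filter used the mean over all arrays, which are mostly tumours, so genes bright only in tumours could pass it. The promoters are those of RefSeq.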

Additional observations from a re-analysis of the deposited data

Results flagged for a closer look

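Among the 6 tumours, 2 of the 14 probe sets had 1 sample far from the others by Dixon's test on linear signals. The test flags about 1 in 20 such groups by chance where values are normally distributed. Linear signals can be skewed, which would raise that share, and the log2 scale was not tried. Slc7a2 on 1450703_at read 59.7 in tumour 1, against 6.49 to 17.7 in the other tumours. Slc1a4 on 1423549_at read 74.1 in tumour 2, against 13.6 to 35.9 in the others.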

How the results depend on the processing

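The member count of 3 genes was 2 to 4 under rescaling, normalization, offset, trend, filter and probe set alternatives, and 1 to 3 when 1 array was left out. Over all genes leaving out 1 array gave 1110 to 2769 calls, over all probe sets 1579 to 4033 and over the 6 lists together 13 to 34, against 30. The member probe sets called were 4, with a range of 1 to 5 over the fits lacking an array, and 2 among above-median features. Without the rescaling, all genes split into 2373 higher and 369 lower in place of 1073 and 1127, with a median difference of 0.79 in place of 0.10, and all probe sets into 3504 higher and 546 lower. Of the uncalled member genes only Slc3a2 was then called. With median centring the split was 851 higher and 1125 lower.

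Direction turned only for members that were not called. Without the rescaling, Slc7a1 was 0.62, Slc7a2 0.54, Slc7a8 0.01 and Slc38a2 0.53. Slc7a1 was 0.22 without tumour 2 and Slc7a2 0.0025 without tumour 5. Slc7a11 was -0.05 with quantile normalization, -0.06 with median centring, -0.17 without tumours 1 and 4, and -0.07, -0.0029 and -0.23 without tumour 1, tumour 4 and muscle 3. Over the fits that each left out 1 array, Slc7a1 ranged from -0.33 to 0.22, Slc7a2 from -0.41 to 0.0025 and Slc7a11 from -0.23 to 0.26. The cause was not tested.

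Tumours and muscles share replicate numbers 1 to 3. Deviations from the group means correlated by 0.228, 0.177 and -0.018 for the same-numbered pairs. Tumour 1 correlated by -0.212 and -0.054 with muscles 2 and 3, and tumour 2 by -0.214 and 0.072 with muscles 1 and 3. Tumours 1 and 2 thus matched their own number best, while tumour 3 correlated best with muscle 2 (0.036). Since the 3 muscles are centred on their own mean, each tumour must correlate positively with at least 1 of them. These values therefore cannot tell whether samples are paired. Nothing in the labels ties the samples, and whether the numbers mark a shared origin was not tested. On those 6 arrays a replicate block gave 1467 called genes, 1 member gene, 1 member probe set and 19 list genes. The same arrays without a block gave 1089 genes, 1624 probe sets, 1 member gene, 1 member probe set and 16 list genes. Fewer arrays enter these fits. The member called was Slc7a5. The lists of lost calls for genes above leave out these fits. In both of them Slc7a7, Slc1a4, Slc38a1, Slc7a3, Arg1, Bcat1, Lamtor1, Deptor and Ddit3 were not called. Oat was not called in the fit without a block. No depth applies to arrays, and probe sets near background limit Slc7a2 and Slc1a4. Dim signals also enter the values of Slc7a5 in muscles (43.0 to 166) and of Slc7a1 in tumour 2 (30.1).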
